A study of Mus musculus with 3 samples.

Results

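The 30 genes described here encode the enzymes, channels and regulators that carry the light response of rods and cones downstream of the opsins. The members were fixed by name and no measured value entered the rule, but earlier results of these data were known when they were chosen. All 30 were in each of the 3 RNA gene tables, which list 18823 genes for the explants, 17851 for the postnatal day (P) 0 retinas and 17849 for the P14 retinas (19946 in their union). They comprise 6 transducin subunits, 6 subunits or carriers of phosphodiesterase 6, 4 subunits of the cGMP-gated channel, 8 genes that shut off or limit the response, and 6 genes of calcium exchange and cGMP recovery.

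Single cells of mouse retina were counted in 3 multiplexed libraries in which a lipid-bound oligo marked the source sample of each cell (MULTI-seq). The explant library held wild type CD1 retinas taken at embryonic day 14 and cultured on membranes for 6 days with 0, 5, 50 or 500 nM of a small-molecule agonist of Sstr2, a somatostatin receptor, with 2 samples a dose. The P0 and P14 libraries each held untreated littermates on a mixed C57BL/6 / CD1 background: 1 Sstr2 +/+ retina sample (wild type), 2 Sstr2 +/- (heterozygotes) and 2 Sstr2 -/- (knockouts, with a targeted deletion in all cells). The knockout line, of C57BL/6 origin, had been outbred to CD1 before these litters were bred, so the littermates were not of 1 inbred strain. Sample numbers within a group only name the samples in the order of their tags and do not come from the study. The libraries held 5607, 5706 and 3298 cells, and totals per sample ran from 1281682 to 4237324 UMIs in explants, from 8822880 to 10793649 at P0 and from 1266730 to 5886669 at P14. Sstr2 RNA itself did not check the genotype labels, since its UMIs were present in both P0 knockouts. The libraries shared 9, 4 and 7 cell barcodes in their 3 pairings.

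In darkness, cGMP holds open a cation channel in the outer segment membrane. Light-activated opsin switches on the G protein transducin, transducin relieves the inhibition of phosphodiesterase 6, cGMP falls and the channel closes. Arrestin, an opsin kinase and an RGS9 complex end the response, while guanylate cyclases, their calcium-sensing activators and a sodium, calcium and potassium exchanger restore cGMP and calcium. Rods and cones use separate genes for many of these steps: Gnat1, Gngt1 and Gnb1 for rod transducin against Gnat2, Gngt2 and Gnb3 for cone transducin, Pde6a, Pde6b and Pde6g against Pde6c and Pde6h, Cnga1 and Cngb1 against Cnga3 and Cngb3, and Sag against Arr3.

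Levels are given as CPM, the UMIs of a gene per 1000000 UMIs summed over the cells of 1 sample and cell type. The 3′ chemistry counts 1 UMI per captured RNA molecule whatever its length. How fully each gene was captured and counted was not measured, so orders between genes are orders of UMIs counted. Cell types are those of the deposited annotation, which came from clusters of the same cells, so levels by cell type are descriptions without a test. The 8 fixed photoreceptor markers all had UMIs in explant photoreceptors, P0 photoreceptors, P14 rods and P14 cones, but also in P14 bipolar cells and Müller glia. They summed to 6291 to 7333 CPM in P14 rods, 2586 to 4761 in cones, 1388 to 1698 in bipolar cells and 280 to 615 in Müller glia. The 7 cone markers summed to 8851 to 11408 CPM in P14 cones and 138 to 174 in rods. The 6 rod markers summed to 25458 to 27923 CPM in P14 rods and, in the cones as well, to 3947 to 11252.

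The summed share of UMIs taken by the 30 genes separated P14 rods and cones from the younger photoreceptors, while explants and P0 retinas overlapped. It was 0.692 to 0.981% in photoreceptors of the 8 explants, 0.49 to 0.742% in those of the 5 P0 retinas, 6.68 to 7.52% in P14 rods and 4.6 to 5.31% in P14 cones. As a mean over cells the share was 0.749 to 1.05% in explant photoreceptors and 0.691 to 0.982% in P0 photoreceptors. Primary progenitors gave 0.0363 to 0.0628% in explants and 0.0404 to 0.0517% at P0, from sums of UMIs. Cell numbers behind these values were 106 to 403 photoreceptors per explant, 178 to 252 per P0 retina, 246 to 668 rods and 11 to 34 cones per P14 retina. The 7 primary progenitor markers summed to 208 to 507 CPM in explant photoreceptors and 1228 to 2155 CPM in P0 photoreceptors. Their part in the P0 levels given below was not tested.

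**Figure D1:**
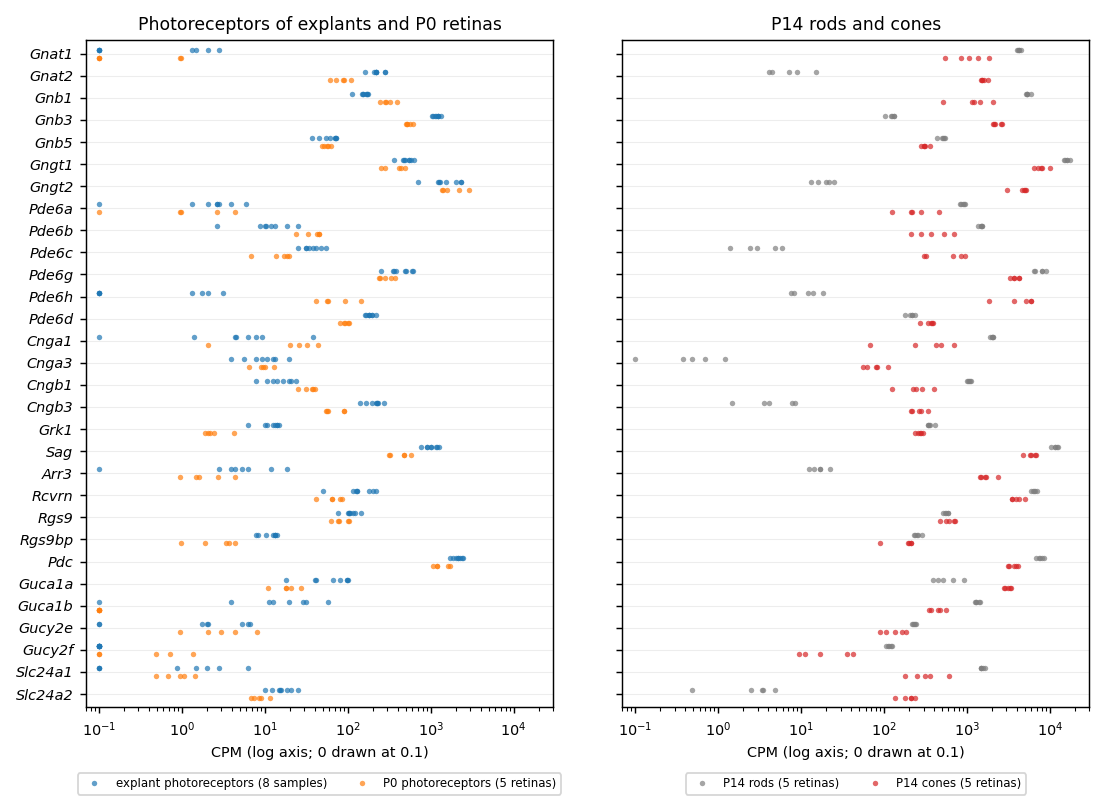
CPM of each of the 30 genes on a log axis, with 1 point per sample: left, photoreceptors of 8 explants and 5 P0 retinas; right, rods and cones of 5 P14 retinas. Gngt2, Pdc, Gnb3 and Sag were already near or above 300 CPM in the young photoreceptors, whereas Gnat1 stood at 0 to 2.8 CPM there and at 4039 to 4483 CPM in P14 rods.

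Among transducin subunits, the catalytic alpha subunit of rods was nearly missing from young photoreceptors while the cone alpha subunit and the beta and gamma subunits were present. Gnat1 had 5 UMIs in all explant photoreceptors and 3 in all P0 photoreceptors, against 34253 in P14 rods, where it measured 4204 CPM in the wild type, 4096 and 4271 in the heterozygotes and 4483 and 4039 in the knockouts. Gnat2, the cone alpha subunit, measured 162 to 283 (median 218) CPM over explants, and at P0 87.7 CPM in the wild type, 61.8 and 90.8 in the heterozygotes and 73 and 111 in the knockouts. At P14 its level was 1487 CPM in the wild type, 1506 and 1540 in the heterozygotes and 1612 and 1781 in the knockouts in cones and only 4.12 to 15.2 CPM in rods.

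The gamma subunits of both kinds stood above both alpha subunits in young photoreceptors. Gngt2, the cone gamma subunit, had the highest median of the members in P0 photoreceptors and the second highest in explants. At P0 it measured 1559 CPM in the wild type, 1362 and 1412 in the heterozygotes and 2194 and 2891 in the knockouts. A UMI of Gngt2 was found in 89.9% of P0 photoreceptors and 6.43% of P0 neurogenic progenitors (70.4% and 0.747% after thinning every cell to 1000 UMIs), the median cell holding 4035 to 5199 and 6460 to 7643 UMIs per retina, respectively. By P14 Gngt2 was at 3040 to 5219 CPM in cones and 13.3 to 25.3 CPM in rods.

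Gngt1, the rod gamma subunit, measured 357 to 629 (median 515) CPM in explants and 253 CPM in the wild type, 489 and 442 in the heterozygotes and 279 and 413 in the knockouts at P0. It had the highest median of the members in both P14 types, at 14664 to 17382 CPM in rods and 6511 to 9914 CPM in cones. Of the beta subunits, Gnb3, the cone form, was at 1036 to 1318 (median 1196) CPM in explants and 514 CPM in the wild type, 522 and 559 in the heterozygotes and 506 and 614 in the knockouts at P0. Gnb1, used in rods but also a general G protein subunit, was at 113 to 177 (median 160) CPM in explants and 284 CPM in the wild type, 388 and 247 in the heterozygotes and 322 and 287 in the knockouts at P0. P14 rods had the reverse order, with Gnb1 at 5230 to 5926 CPM and Gnb3 at 104 to 134. The P0 values are of all photoreceptors. In the rod-marked cells of P0 defined below, Gnb1 was at 379 and Gnb3 at 411 CPM, and in cone-marked cells at 182 and 1259. Cones held 2068 CPM in the wild type, 2105 and 2654 in the heterozygotes and 2168 and 2584 in the knockouts for Gnb3, with Gnb1 at 517 to 2081 CPM. Gnb5, a beta subunit that partners Rgs9 in ending the response, ranged less, from 49 to 63.7 CPM at P0 to 441 to 538 in rods and 281 to 362 in cones.

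The phosphodiesterase subunits did not appear together. The inhibitory gamma subunit of rods, Pde6g, was well above the catalytic subunits it inhibits: 253 to 612 (median 441) CPM in explants and 245 CPM in the wild type, 372 and 333 in the heterozygotes and 237 and 285 in the knockouts at P0. The catalytic subunits were at 23.7 to 45.2 CPM for Pde6b and 0 to 4.33 CPM for Pde6a at P0. In P14 rods Pde6g measured 6381 CPM in the wild type, 6647 and 9033 in the heterozygotes and 8140 and 8129 in the knockouts, Pde6b 1500 CPM in the wild type, 1528 and 1369 in the heterozygotes and 1535 and 1480 in the knockouts and Pde6a 824 to 939 CPM. The cone catalytic subunit Pde6c was at 25 to 55.2 (median 36) CPM in explants, and 18.5 CPM in the wild type, 6.93 and 19.7 in the heterozygotes and 17.1 and 13.7 in the knockouts at P0. In P14 cones it measured 689 CPM in the wild type, 304 and 843 in the heterozygotes and 955 and 322 in the knockouts, with 1.38 to 5.9 CPM in rods. Pde6d, a carrier of prenylated proteins, was present throughout, from 80.2 to 104 CPM at P0 to 179 to 240 in rods and 270 to 389 in cones, and at 61.1 CPM in P0 primary progenitors.

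Pde6h, the cone inhibitory gamma subunit, was nearly missing from the cultured photoreceptors and present at P0. It had 5 UMIs among 4961550 in explants, or 0 to 3.13 CPM per explant. At P0 it had 585 UMIs among 7804402 and measured 92.5 CPM in the wild type, 41.6 and 55.8 in the heterozygotes and 57.8 and 144 in the knockouts. The ranges of the 2 libraries did not overlap, and the share of all genes for which this held was not counted. Guca1b, which encodes the guanylate cyclase activator GCAP2, showed the opposite: 128 UMIs in explants, at 57.2 and 12.5 CPM at 0 nM, 0 and 11.2 at 5 nM, 28.9 and 19.7 at 50 nM and 31.4 and 3.97 at 500 nM. At P0 it had 0 of 7804402 UMIs, which allows up to 0.384 CPM (3 counts). These are separate libraries over all doses and genotypes, and culture, agonist, Sstr2 genotype, strain background and library cannot be told apart.

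The channel subunits were low in young photoreceptors apart from Cngb3. Cngb3, the cone beta subunit, was at 141 to 276 (median 221) CPM in explants and 91.2 CPM in the wild type, 56.4 and 57.4 in the heterozygotes and 54 and 90.9 in the knockouts at P0. Cnga3, the cone alpha subunit with which it assembles, was at 3.97 to 19.4 (median 9.98) and 6.43 to 13 CPM. In P14 cones Cngb3 measured 216 CPM in the wild type, 215 and 337 in the heterozygotes and 281 and 266 in the knockouts and Cnga3 62.1 CPM in the wild type, 80.5 and 112 in the heterozygotes and 83 and 56.5 in the knockouts. The rod subunits were at 0 to 38.1 CPM for Cnga1 and 7.95 to 23.9 for Cngb1 in explants. At P0 Cnga1 measured 2.06 CPM in the wild type, 32.7 and 43.6 in the heterozygotes and 19.9 and 26 in the knockouts, with the single wild type (3 UMIs) below every littermate. Cngb1 measured 25.4 CPM in the wild type, 31.7 and 37.2 in the heterozygotes and 37.9 and 40.4 in the knockouts. P14 rods held 2007 CPM in the wild type, 2080 and 1890 in the heterozygotes and 2092 and 2030 in the knockouts for Cnga1 and 993 to 1107 CPM for Cngb1.

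Of the 8 genes that limit or end the response, Pdc and Sag stood highest in young photoreceptors. Pdc encodes phosducin, which binds transducin beta and gamma, and had the highest median of the members in explants, at 1732 to 2464 (median 2122) CPM; at P0 it measured 1060 CPM in the wild type, 1185 and 1725 in the heterozygotes and 1199 and 1603 in the knockouts. Sag, the rod arrestin, was at 768 to 1263 (median 1013) CPM in explants and 316 CPM in the wild type, 482 and 573 in the heterozygotes and 320 and 477 in the knockouts at P0. The cone arrestin Arr3 was at 0 to 18.4 CPM in explants and 0.948 to 4.33 CPM at P0, and reached 1489 CPM in the wild type, 1676 and 2350 in the heterozygotes and 1711 and 1436 in the knockouts in P14 cones. Sag in P14 cones was 6642 CPM in the wild type, 5874 and 5813 in the heterozygotes and 6763 and 4766 in the knockouts, above Arr3 in each of the 5 retinas. Recoverin (Rcvrn), the calcium sensor that restrains the opsin kinase, was at 41.8 to 84.4 CPM at P0 and 5990 to 7010 CPM in rods. The kinase gene Grk1 went from 1.9 to 4.25 to 338 to 411 CPM between P0 photoreceptors and P14 rods, without a test. Over the same interval Rgs9, which speeds transducin inactivation, went from 62.3 to 105 to 521 to 587 CPM, and its membrane anchor Rgs9bp from 0.989 to 4.33 to 231 to 290 CPM. The P0 values are of all photoreceptors, future cones included. In the marked cells of P0 defined below, Rgs9 was at 201 CPM in cone-marked and 57.4 CPM in rod-marked cells.

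The recovery genes were among the latest. The guanylate cyclases Gucy2e and Gucy2f were at 0.948 to 7.97 and 0 to 1.37 CPM at P0, and Gucy2f had 0 UMIs in explant photoreceptors. In P14 rods they were at 220 to 242 and 106 to 126 CPM. The rod exchanger Slc24a1 went from 0.495 to 1.44 CPM at P0 to 1460 to 1634 CPM in P14 rods. Slc24a2, the cone exchanger, went from 6.91 to 11.5 CPM at P0 to 137 to 237 CPM in P14 cones, with 0.492 to 4.81 CPM in rods. It was not limited to photoreceptors at P0, where ganglion cells held it at 9.85 to 23.9 CPM, from 12 to 26 cells per retina. Guca1a, the gene of the cyclase activator GCAP1, had the highest P0 median of the recovery genes, at 18.2 to 101 CPM in explants and 10.9 to 27.1 CPM at P0. At P14 it measured 2886 CPM in the wild type, 2821 and 3351 in the heterozygotes and 3372 and 3172 in the knockouts in cones and 391 to 931 CPM in rods. Medians above 100 CPM were reached by 12 of 30 members in explant photoreceptors, 7 at P0, 22 in P14 rods and 28 in P14 cones.

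To ask which of the young photoreceptors carried these transcripts, cells were split by genes outside the list. Rod-marked cells had a UMI of the rod factors Nrl or Nr2e3 and none of Thrb, Rxrg or Opn1sw, and cone-marked cells the reverse. At P0 this gave 490 rod-marked and 119 cone-marked cells, with 276 cells holding both kinds of marker and 257 neither; in explants the numbers were 525, 310, 461 and 366. Sums of the classes per sample were compared within samples with edgeR's quasi-likelihood test. At P0, 21 of the 30 members passed the filter on low counts and 19 were called at an adjusted p under 0.05, 6 higher in rod-marked and 13 higher in cone-marked cells. Of all genes tested, 11% were called (4.51% higher and 6.52% lower in rod-marked cells). In explants 15 passed and 14 were called, 3 higher in rod-marked and 11 in cone-marked cells, against 14.4% of all genes (6.62% and 7.75%). All genes tested had a median log2 fold change of 0.02 at P0 and 0.01 in explants. The filter could keep a gene through the class where it was high. At P0 Pde6b had 135 UMIs in rod-marked and 0 in cone-marked cells, and Pde6h had 4 and 299. For such members passing the filter and being called are not separate, so the counts of calls are descriptions.

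**Figure D2:**
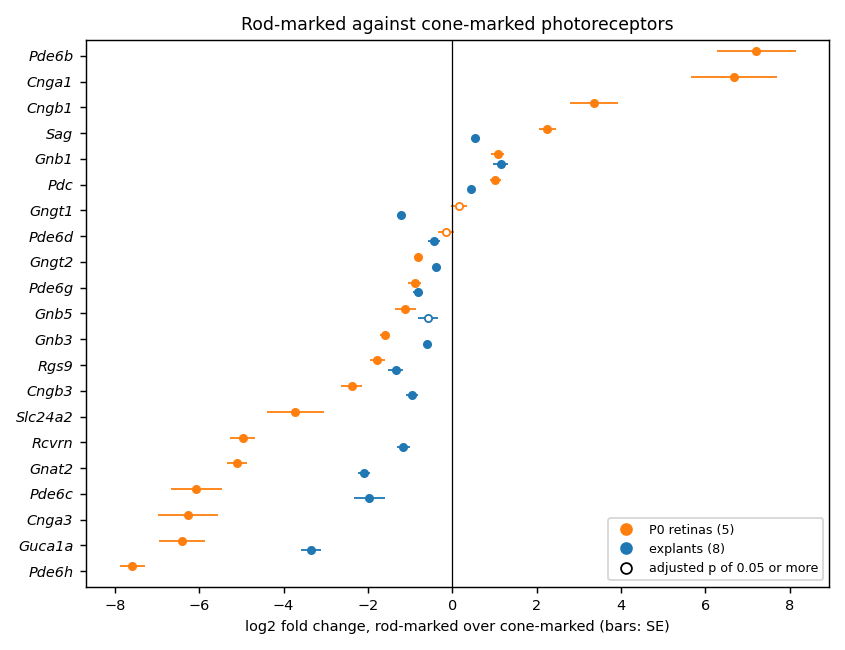
Log2 fold change of rod-marked over cone-marked photoreceptors with its SE, for each member tested in P0 retinas or explants; open circles are members with an adjusted p of 0.05 or more. Cone forms lay to the left in both libraries, and Gngt1 was near 0 at P0 but at -1.22 in explants.

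The rod-marked cells of P0 held the rod channel, the rod catalytic subunit Pde6b, arrestin and phosducin. Pde6b had 135 UMIs in rod-marked and 0 in cone-marked cells, at least 12-fold higher against a floor of 3 counts over the class, and Cnga1 had 121 and 0, at least 10.8-fold higher. Cngb1 had 156 UMIs in rod-marked and 4 in cone-marked cells and differed by 3.36 ± 0.57 (log2, SE). Sag differed by 2.25 ± 0.20 (adjusted p = 4.97e-09), Gnb1 by 1.07 ± 0.16 and Pdc by 1.02 ± 0.12. Each of these 6 was higher in rod-marked cells of 5 of 5 retinas.

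Of the UMIs of several cone genes in these 2 classes of P0, cone-marked cells held nearly all, while cells with both markers or neither were not compared. Pde6h had 299 UMIs in cone-marked and 4 in rod-marked cells, at 377 and 1.35 CPM (log2 fold change -7.59 ± 0.30 (SE)). Gnat2 was at 371 CPM in cone-marked and 10.1 CPM in rod-marked cells (log2 fold change -5.11 ± 0.23 (SE)). Passing the filter and being called are not separate for Pde6h and Gnat2, so their p-values are left out. Pde6c had 56 UMIs in cone-marked and 2 in rod-marked cells, a ratio of CPM of 105 with a 95% exact counting interval of 27.7 to 886. For Cnga3 the UMIs were 40 and 1, a ratio of 150 (25.3 to 6052). Genes that adult rods also use stood on the cone side. Rcvrn was at 324 CPM in cone-marked and 11.8 CPM in rod-marked cells (log2 fold change -4.97 ± 0.30 (SE)), and its p-value is left out on the same ground. Guca1a had 68 and 2 UMIs, a ratio of 127 (33.9 to 1071).

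The rod inhibitory subunit Pde6g was likewise higher in cone-marked cells, at 490 against 286 CPM (log2 fold change -0.89 ± 0.15 (SE), adjusted p = 0.000146). Gngt2 differed by less, at 3161 CPM in cone-marked and 1716 CPM in rod-marked cells (log2 fold change -0.82 ± 0.10 (SE), adjusted p = 5.58e-07), so rod-marked cells of P0 carried the cone gamma subunit at a level far above that of P14 rods, in separate libraries. The others called on the cone side were Gnb3 (-1.60), Gnb5 (-1.12), Cngb3 (-2.38), Rgs9 (-1.78) and Slc24a2 (-3.72). Slc24a2 had 26 UMIs in cone-marked and 6 in rod-marked cells, so for it passing the filter and being called are not separate. Gngt1 (log2 fold change 0.16 ± 0.19 (SE), adjusted p = 0.673) and Pde6d (log2 fold change -0.15 ± 0.19 (SE), adjusted p = 0.698) were not called.

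In explants the same contrast was tested for 15 members. Gnat2 was at 524 CPM in cone-marked and 118 CPM in rod-marked cells (log2 fold change -2.10 ± 0.14 (SE), adjusted p = 5.37e-27). Guca1a was at 243 and 20.1 CPM (log2 fold change -3.35 ± 0.24 (SE)). Guca1a could pass the filter through cone-marked cells, so its p-value is left out. Gngt1, although a rod form, was higher in cone-marked cells of 8 of 8 explants, at 1008 against 409 CPM (log2 fold change -1.22 ± 0.10 (SE), adjusted p = 1.34e-20). Sag was at 1301 CPM in rod-marked and 903 CPM in cone-marked cells (log2 fold change 0.55 ± 0.09 (SE), adjusted p = 4.44e-07), higher in rod-marked cells of 7 of 8 explants, as was Pdc (log2 fold change 0.45 ± 0.07 (SE), adjusted p = 1.02e-07). Gnb1 was higher in rod-marked cells of 8 of 8 (log2 fold change 1.15 ± 0.18 (SE), adjusted p = 1.67e-07), and Gnb5 was not called (log2 fold change -0.58 ± 0.23 (SE), adjusted p = 0.0858). The remaining members called on the cone side were Gnb3, Gngt2, Pde6c, Pde6g, Pde6d, Cngb3, Rcvrn and Rgs9, with log2 fold changes from -1.97 for Pde6c to -0.38 for Gngt2. The difference between the classes itself differed between P0 retinas and explants for 10 of the 21 members in a joint fit (edgeR interaction of class and library), where 2.52% of all genes tested did. Members could pass the filter of this fit through 1 class, so this count is a description. Of these 21 members, 15 had been tested in each library alone. Culture, agonist, Sstr2 genotype, strain background and library cannot be told apart. Cells with both kinds of marker made up 27.7% of explant photoreceptors and 24.2% of those at P0, and the median cell had 2469 to 2942 UMIs in the 4 explant classes and 3971 to 5704 in the P0 classes.

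Of the 14 other photoreceptor genes listed for comparison (visual cycle, chaperones and inner segment channels), 8 were tested at P0 and 6 called, 2 on the rod side and 4 on the cone side. The retinoid transporter Abca4 was higher in rod-marked cells (log2 fold change 1.77 ± 0.26 (SE), adjusted p = 1.85e-05) and the phosphodiesterase chaperone Aipl1 in cone-marked cells (log2 fold change -3.60 ± 0.22 (SE), adjusted p = 4.96e-12). Explants gave 7 tested and 4 called, with Abca4 at 1.53 and Aipl1 at -1.29 on the log2 scale.

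The sequences just upstream of the start are shown for members that differed between rod-marked and cone-marked cells and for Gngt1, which did so in one library. RefSeq promoters (GRCm38.p6, 250 bases before to 50 after the start) were at hand for 20 of the 30 genes, which had 22 promoters. Below, a gene counts when any of its promoters holds the letters, while the share of all promoters is per promoter. The letters TAATCC, the core recognised by the photoreceptor homeodomain factors Crx and Otx2, stood on either strand of the 250 upstream bases in 9 of these 20 genes (Cnga1, Cngb1, Gnat2, Gnb5, Gngt1, Guca1a, Gucy2e, Gucy2f and Sag), or 45%, and in 6.25% of all 32851 promoters. TGCTGA, a half-site of the rod factor Nrl and related proteins, stood in 3 of 20 (Pde6b, Rgs9 and Sag), or 15%, and in 16.1% of all promoters. The reverse forms are GGATTA and TCAGCA, and the 2 motifs do not overlap in any line shown. The last 200 upstream bases follow, 5′ to 3′ on the gene's strand, with these letters in capitals.
Sag, chr1:87803480-87803679, + strand: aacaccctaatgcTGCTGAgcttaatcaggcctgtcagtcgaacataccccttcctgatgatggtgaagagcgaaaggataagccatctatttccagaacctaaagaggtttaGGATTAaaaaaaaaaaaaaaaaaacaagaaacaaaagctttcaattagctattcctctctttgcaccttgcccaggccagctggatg
Cngb1, chr8:95306586-95306785, - strand: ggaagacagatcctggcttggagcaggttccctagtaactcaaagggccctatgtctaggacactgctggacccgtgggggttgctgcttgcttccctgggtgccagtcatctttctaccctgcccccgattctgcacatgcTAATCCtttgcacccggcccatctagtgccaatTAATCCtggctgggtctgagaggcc
Cnga1, chr5:72642753-72642952, - strand: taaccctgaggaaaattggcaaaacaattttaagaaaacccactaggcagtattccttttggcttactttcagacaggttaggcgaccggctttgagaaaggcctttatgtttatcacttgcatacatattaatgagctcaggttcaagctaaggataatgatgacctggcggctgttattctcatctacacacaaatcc
Gngt1, chr6:3993808-3994007, + strand: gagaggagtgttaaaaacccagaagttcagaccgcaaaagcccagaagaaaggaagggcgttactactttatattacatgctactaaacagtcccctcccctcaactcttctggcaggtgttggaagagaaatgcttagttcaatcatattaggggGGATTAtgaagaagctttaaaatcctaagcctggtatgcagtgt
Gnat2, chr3:108092866-108093065, + strand: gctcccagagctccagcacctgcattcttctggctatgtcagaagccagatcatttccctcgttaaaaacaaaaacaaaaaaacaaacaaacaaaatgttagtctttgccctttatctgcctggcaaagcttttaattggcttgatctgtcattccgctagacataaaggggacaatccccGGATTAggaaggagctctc
Guca1a, chr17:47400607-47400806, - strand: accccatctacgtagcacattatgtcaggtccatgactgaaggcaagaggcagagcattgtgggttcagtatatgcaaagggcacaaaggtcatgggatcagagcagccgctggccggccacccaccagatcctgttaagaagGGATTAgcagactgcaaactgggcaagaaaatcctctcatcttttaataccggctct
Pde6h, chr6:136954323-136954522, + strand: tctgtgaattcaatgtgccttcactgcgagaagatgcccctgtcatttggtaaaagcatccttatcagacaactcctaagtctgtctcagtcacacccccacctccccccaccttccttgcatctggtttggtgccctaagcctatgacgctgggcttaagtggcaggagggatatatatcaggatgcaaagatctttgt
Cngb1, high in rod-marked cells, and Gnat2 and Guca1a, high in cone-marked cells, all held TAATCC or its reverse in these windows, whereas Pde6h had neither motif. Cnga1 had neither motif in the window shown. Its TAATCC or reverse stood outside that window, and whether farther upstream or in another promoter was not resolved. A match of letters is a description and does not show binding.

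Cones of P14 held UMIs of every rod form, so each gene was also divided by Gnat1, the rod alpha subunit, within each cell type; Gnat1 was chosen for this after the data were seen. Gnat1 was at 4039 to 4483 CPM in rods and 540 to 1830 CPM in cones. As medians over 5 retinas, Pde6a was at 0.217 per Gnat1 UMI in rods and 0.229 in cones, Pde6b at 0.357 and 0.386 and Cngb1 at 0.254 and 0.229, with ranges that overlapped between the types. Cnga1 (0.477 and 0.362) and Slc24a1 (0.363 and 0.299) were somewhat lower in cones, with ranges that did not overlap. Other members stood above that proportion in cones. Among them were Gngt1 at 7.49 against 3.81, Sag at 5.66 against 2.78 and Pde6g at 3.99 against 1.82. Pdc was at 3.01 against 1.87, Rcvrn at 3.28 against 1.52 and Grk1 at 0.257 against 0.0863. Guca1a was farther from the rod proportion than these 6, at 3.19 against 0.122. Rgs9, Rgs9bp, Gnb5 and Gucy2e also had medians above their rod proportion in cones.

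**Figure D3:**
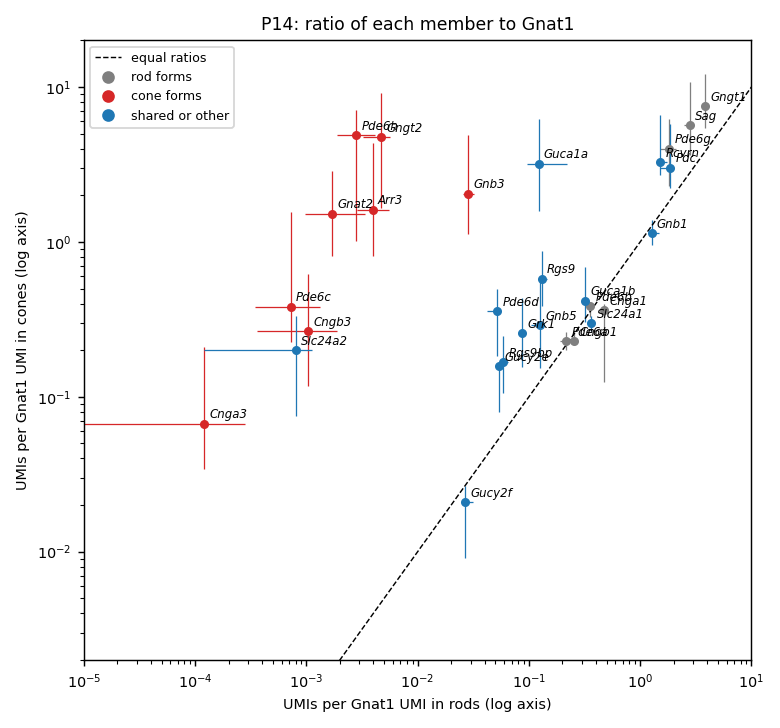
UMIs of each other member per Gnat1 UMI in P14 rods (horizontal) and P14 cones (vertical), both on log axes; points are medians and bars the range over 5 retinas, and the dashed line marks equal ratios. Pde6a, Pde6b, Cnga1, Cngb1 and Slc24a1 lay close to the line, Gngt1, Sag, Pde6g, Pdc and Rcvrn above it, and the cone forms far above it.

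Other P14 cells held rod transcripts as well. Gnat1 was at 179 to 533 CPM in Müller glia and 312 to 579 CPM in bipolar cells, types that do not use it, and per Gnat1 UMI Pde6b was at 0.305 and 0.346, beside 0.357 in rods. Other rod genes had medians below their rod proportion: Gngt1 was at 1.94 and 3.03 beside 3.81, Pde6g at 0.92 and 1.1 beside 1.82 and Cnga1 at 0.193 and 0.34 beside 0.477. A UMI of Gnat1 was found in 86.1% of Müller glia and 99.7% of rods (34.2% and 96.4% after thinning to 1000 UMIs). The source of these UMIs was not tested. The members together made up 0.607 to 1.01% of UMIs in bipolar cells, 0.137 to 0.495% in amacrine cells and 0.186 to 0.636% in Müller glia.

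Beside these levels 5 members, chosen after their values were seen, stood higher in P14 bipolar or amacrine cells than in Müller glia. Markers of other types were present in the same cells: in bipolar cells all 4 microglia markers, summing to 59.2 to 502 CPM per retina, and all 7 cone markers, at 334 to 496 CPM, and in amacrine cells all 7 markers of ganglion cells, at 0 to 1775 CPM, and all 7 of Müller glia, at 344 to 3694 CPM. In Müller glia the microglia markers summed to 0 to 204 CPM, the cone markers to 87.7 to 164 CPM and the ganglion cell markers, with Pou4f2 at 0, to 20.2 to 65 CPM. Their part in the values that follow was not tested. Gnb3 was at 1104 CPM in the wild type, 1065 and 1104 in the heterozygotes and 902 and 1224 in the knockouts in bipolar cells, where it serves the mGluR6 cascade of ON cells, with 6.75 to 62.7 CPM in Müller glia. Per Gnat1 UMI it was 2.63 in bipolar cells, 0.102 in Müller glia and 0.0285 in rods. Gnb5, at 245 to 377 CPM, gave 0.692, 0.194 and 0.125. Rgs9bp, at 64.2 to 124 CPM, gave 0.183, 0.0753 and 0.0583. Gngt2 was at 177 CPM in the wild type, 94 and 172 in the heterozygotes and 138 and 94.5 in the knockouts in bipolar cells and 0 to 25.5 CPM in Müller glia. Its 440 UMIs in bipolar cells came with 43 of Pde6h, while cones had 5192 and 5113, and the source of the former was not tested. Slc24a2 was at 79.2 to 183 CPM in amacrine cells, 0 to 31.8 in bipolar cells and 0 to 3.87 in Müller glia. Only 4 to 23 amacrine cells per retina stood behind the first value. A UMI was found in 7 of 15 wild type cells, 1 of 4 and 2 of 4 in the heterozygotes and 3 of 22 and 4 of 23 in the knockouts. Heterozygote 2 had 2 UMIs, under the floor of 3 counts. As a mean over cells the retinas stood at 29.6 to 184 CPM.

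**Figure D4:**
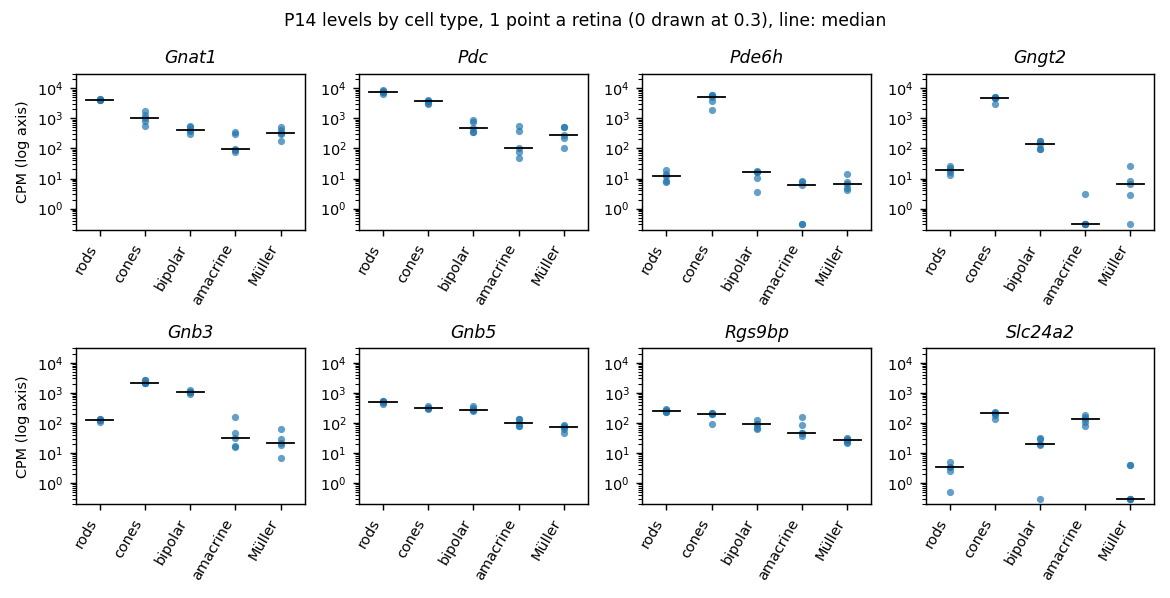
CPM on a log axis of 8 members in 5 cell types of P14, with 1 point per retina and the median as a line. Gnat1 and Pdc were present in every type, Pde6h stood high in cones, Gnb3 was high in cones and bipolar cells, and Slc24a2 in cones and, from UMIs of few cells, in amacrine cells.

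Cngb3 and Rgs9, chosen after their values were seen, stood higher in younger amacrine cells than in progenitors. Cngb3 was at 36.5 to 110 CPM in explant amacrine cells, against 1.79 to 12.7 CPM in primary progenitors, and at 31 to 41.3 against 0 to 1.83 CPM at P0. Rgs9 was at 26.5 to 39.2 CPM in P0 amacrine cells and 3.5 to 8.27 CPM in P0 primary progenitors, and at 9 to 50.6 CPM in P0 ganglion cells. Other members were as high in P0 amacrine cells, among them Gngt2 at 49.1 to 92.8, Pde6d at 53.6 to 74.6, Pdc at 27.1 to 101 and Gnb5 at 26.4 to 43 CPM. Gnb1 was found in every type, at 516 to 892 CPM in P0 ganglion cells and 222 to 316 CPM in P0 primary progenitors.

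The agonist series asked whether receptor stimulation changed photoreceptor differentiation. In explant photoreceptors 19 members passed the filter, and 1 was called between 500 and 0 nM, where 0.0941% of the 7440 genes tested were called. This was Gngt2 (chromosome 11, 95837216 to 95845734, + strand; GRCm38), at 1306 and 1520 CPM at 0 nM, 2331 and 1216 at 5 nM, 1249 and 702 at 50 nM and 2302 and 2019 at 500 nM (log2 fold change 0.64 ± 0.14 (SE), adjusted p = 0.0204). The 500 nM explants lay above both 0 nM explants, as a lack of overlap in either direction did for 34.1% of all genes. However, 1 of the 5 nM explants lay above them as well and both 50 nM explants lay below them, so the levels were not in the order of the doses. Fitted as a slope on log10 dose over the 8 explants, 0 members were called, and DESeq2 also called 0. The Gngt2 call was also lost without 0 nM replicate 1 (log2 fold change 0.53, adjusted p = 0.724, edgeR) and without 500 nM replicate 1 (0.55, adjusted p = 0.116).

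Explants that were high in Gngt2 also stood apart in Xist. Xist, the RNA of the inactive X chromosome of female cells, was at 2976 to 3363 CPM in the photoreceptors of 3 explants (5 nM replicate 1 and both at 500 nM), in which 98.3 to 99.3% of all cells had a Xist UMI. It was at 1571 to 1687 CPM in the other 5, in which 57.7 to 62.4% did. Those 3 explants were the 3 with the most Gngt2. Within the mixed explants Gngt2 differed between cells with and without a Xist UMI: 1697 and 738 CPM in 0 nM replicate 1, 1894 and 897 in 0 nM replicate 2, 1477 and 792 in 5 nM replicate 2, 712 and 2034 in 50 nM replicate 1, and 729 and 658 in 50 nM replicate 2. Cells with Xist were the higher in the first 3, the lower in 50 nM replicate 1, and near the others in 50 nM replicate 2. The CD1 stock is outbred, and whether alleles of Gngt2 differ in the UMIs counted at its 3′ end was not tested, which bears on every Gngt2 value and call given here. Restricted to photoreceptors with a Xist UMI, an alternative chosen after seeing the data, the 500 against 0 nM change of Gngt2 was 0.29 with an adjusted p of 0.755 (edgeR).

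**Figure D5:**
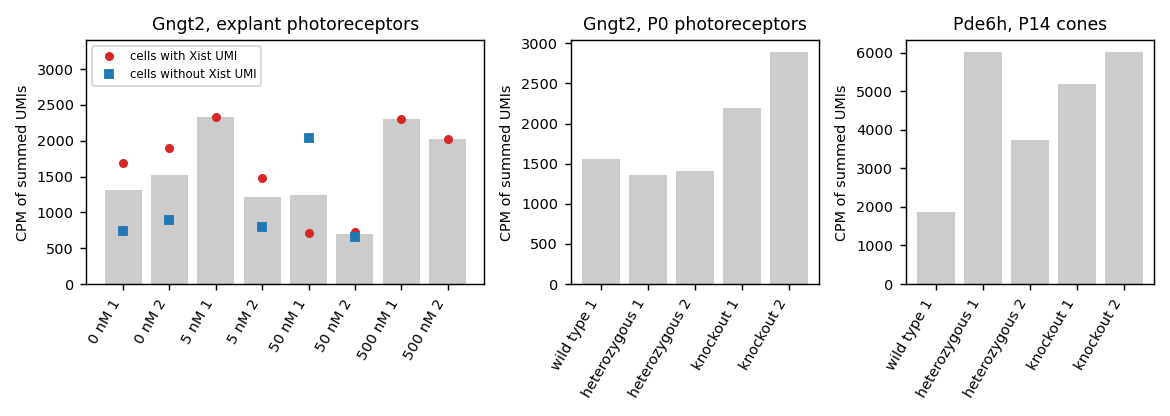
CPM per sample, drawn from 0, of Gngt2 in explant photoreceptors (left), Gngt2 in P0 photoreceptors (centre) and Pde6h in P14 cones (right). On the left, circles and squares give Gngt2 in cells with and without a Xist UMI where at least 10 cells were present, and these differed by up to 2034 against 712 CPM inside 1 explant.

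The other tested members showed no call for dose. Between 500 and 0 nM, 3 of the 19 members, Gngt2 included, were at an unadjusted p under 0.05 (edgeR), beside 421 of all 7440 genes tested. A Xist UMI was found in 99.3 and 98.3% of cells of the 500 nM explants and in 58.7 and 61.1% at 0 nM. Dose and Xist make-up therefore cannot be told apart in this contrast, for any member. The lowest log2 fold change was that of Guca1b (log2 fold change -1.10 ± 0.43 (SE), adjusted p = 0.753), whose 2 untreated explants stood at 57.2 and 12.5 CPM. Guca1a followed (log2 fold change -0.74 ± 0.22 (SE), adjusted p = 0.512, unadjusted p = 0.00144), at 101 and 81.4 CPM at 0 nM, 40.7 and 18.2 at 5 nM, 97.3 and 98.5 at 50 nM and 67.3 and 41.7 at 500 nM. The direction of Guca1b turned when 0 nM replicate 1 was left out. Gnat2, at 283 and 217 CPM at 0 nM, 219 and 162 at 5 nM, 218 and 209 at 50 nM and 280 and 219 at 500 nM, differed by -0.02 ± 0.14 (log2, SE). Sag, at 1204 and 1153 CPM at 0 nM, 1008 and 909 at 5 nM, 768 and 1018 at 50 nM and 1263 and 894 at 500 nM, differed by -0.10 ± 0.11. The 19 members had a median log2 fold change of -0.03 and all genes tested 0.00. Of the 14 other photoreceptor genes, 10 were tested and 0 called.

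The allelic series asked whether loss of the receptor changed the same genes in vivo. In P0 photoreceptors 22 members passed the filter. Knockout against heterozygous gave 1 call, again Gngt2 (log2 fold change 0.88 ± 0.11 (SE), adjusted p = 0.00856), where 0.0592% of 10129 genes were called; both knockouts, at 2194 and 2891 CPM, lay above the other 3 retinas. Knockouts and heterozygotes did not overlap for 36.6% of all genes. Against the single wild type the same gene differed by 0.70 ± 0.14 (adjusted p = 0.315). Of the 22 members 0 were called with edgeR, 0 with DESeq2 and 5 at an unadjusted p under 0.05, with 0.00987% of all genes called and 4.59% at that unadjusted p. The 2 contrasts share the knockout samples. Without heterozygote replicate 2 the Gngt2 call was lost, with a change of 0.91 and an adjusted p of 0.252. Xist was at 2076 and 2092 CPM in photoreceptors of heterozygote 1 and knockout 2 and at most 4.8 CPM in the other 3, which does not separate the genotypes. Gngt2 lies 17.8 Mb from Sstr2 (chromosome 11, 113619342 to 113626028, + strand) on the same chromosome, as do Rgs9 at 4.32, Pde6g at 6.82, Gucy2e at 44.4 and Rcvrn at 45.9 Mb; inheritance of linked alleles with the deletion was not tested.

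Other P0 differences did not pass. Between knockout and heterozygous, 6 of the 22 members, Gngt2 included, were at an unadjusted p under 0.05 (edgeR), beside 696 of all 10129 genes tested. Pde6h had the highest log2 fold change between knockout and heterozygous (log2 fold change 1.10 ± 0.30 (SE), adjusted p = 0.406), with the knockouts at 57.8 and 144 CPM, the heterozygotes at 41.6 and 55.8 and the wild type between the knockouts. Gucy2e had the lowest (log2 fold change -0.90 ± 0.84 (SE), adjusted p = 0.881), from levels under 10 CPM. Against wild type, Cnga1 had the highest value (log2 fold change 3.44 ± 0.57 (SE), adjusted p = 0.133), which rested on the 3 UMIs of the wild type behind its 2.06 CPM, and Cngb3 the lowest (log2 fold change -0.31 ± 0.23 (SE), adjusted p = 0.979). Pde6g was at 237 and 285 CPM in knockouts and 333 and 372 in heterozygotes (log2 fold change -0.42 ± 0.11 (SE), adjusted p = 0.406), with the wild type at 245. The rod genes Gngt1 and Sag had the same order, with the wild type beside knockout 1 and below both heterozygotes.

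In P14 rods no member passed the test for genotype. Of 27 members tested, 0 were called between knockout and wild type and 0 between knockout and heterozygous, by edgeR and by DESeq2, with 2 and 0 at an unadjusted p under 0.05. The background was 0.0211 and 0.0106% of 9474 genes called (3.06 and 2.89% at that unadjusted p). The most extreme values were in cone genes with few UMIs in rods, Gnat2 at 1.53 ± 0.62 against wild type and Cngb3 at 1.46 ± 0.80 against heterozygotes (and -0.33 ± 0.68 against wild type, the lowest there), and in Guca1a at -0.23 ± 0.29 against heterozygotes. Guca1a varied among retinas within a genotype, at 513 CPM in the wild type, 391 and 931 in the heterozygotes and 687 and 445 in the knockouts. Gngt1, at 16100 CPM in the wild type, 14664 and 17382 in the heterozygotes and 16212 and 15371 in the knockouts, differed by -0.01 ± 0.11 against wild type. Sag, at 10318 CPM in the wild type, 11405 and 12710 in the heterozygotes and 12180 and 11442 in the knockouts, differed by 0.22 ± 0.10. Median changes over the 27 members were 0.09 and 0.04. Xist was at 1088 CPM in rods and 2541 CPM in cones of heterozygote 2. In the other P14 retinas it was at most 19.4 CPM in rods and 13.4 CPM in cones. The heterozygotes therefore differed in Xist, and its part in the P14 genotype contrasts was not tested.

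Cones of P14 gave 7 calls among 29 members between knockout and wild type, where 0.412% of 5093 genes were called (0.157% higher and 0.255% lower). Between knockout and heterozygous 0 were called by edgeR and 0 by DESeq2, with 0 at an unadjusted p under 0.05, against 0.0785% and 4.48% of all genes. Pde6h was higher in knockouts, at 1864 CPM in the wild type, 6012 and 3744 in the heterozygotes and 5182 and 6005 in the knockouts (log2 fold change 1.57 ± 0.21 (SE), adjusted p = 3e-09), and Gngt2 as well, at 3040 CPM in the wild type, 4636 and 4925 in the heterozygotes and 5016 and 5219 in the knockouts (log2 fold change 0.74 ± 0.19 (SE), adjusted p = 0.0469). For both genes the wild type was low beside all 4 other retinas, heterozygotes included, and wild type and knockouts did not overlap for 64.2% of all genes. The 5 lower genes were rod forms: Gnat1 at 1830 CPM in the wild type, 1346 and 540 in the heterozygotes and 1057 and 842 in the knockouts (log2 fold change -0.94 ± 0.22 (SE), adjusted p = 0.0122), Pde6a (log2 fold change -1.11 ± 0.28 (SE), adjusted p = 0.0283), Pde6b (log2 fold change -1.11 ± 0.25 (SE), adjusted p = 0.00779), Cnga1 at 708 CPM in the wild type, 487 and 67.5 in the heterozygotes and 421 and 237 in the knockouts (log2 fold change -1.06 ± 0.27 (SE), adjusted p = 0.0256) and Slc24a1 (log2 fold change -1.08 ± 0.26 (SE), adjusted p = 0.0141). All 5 had levels in cones below those in rods, and the part of rod RNA in these differences was not tested. Without knockout replicate 1 or without knockout replicate 2 none of the 7 was called, DESeq2 called 1 of them, Pde6h, and limma on the SCTransform-corrected counts called 0; the wild type group was 34 cones of 1 retina. In the knockout against heterozygous contrast the most extreme values were Gucy2e at 0.60 ± 0.32 and Arr3 at -0.32 ± 0.18.

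Bipolar cells and Müller glia of P14 were compared between knockout and heterozygous. Of 28 members tested in bipolar cells 0 were called (0.137% of 8787 genes), with 0 at an unadjusted p under 0.05 (3.45% of all genes) and 0 with DESeq2. Gnb3 differed by -0.02 ± 0.30, Slc24a2 by 1.18 ± 0.60 and Gngt1 by -0.51 ± 0.32. In Müller glia 24 were tested and 0 called (0.102% of 8816 genes), with 1 at an unadjusted p under 0.05 (3.27% of all genes) and 0 with DESeq2. The most extreme values were Gngt2 at 1.58 ± 1.20 and Arr3 at -1.19 ± 1.01. Leaving out heterozygote replicate 1 or 2, which left a single heterozygote, gave calls in Müller glia. The share of all genes called in those fits is not given, so these calls are no result about the members. Nothing in the labels says that the 2 samples of a group came from separate litters or cultures beyond being separate samples, so the p-values measure the spread between these samples. The single wild type has no spread of its own. In knockout against wild type the p-values therefore rest on the spread within the other groups and do not measure how wild type retinas vary.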

How the data were processed

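The authors dissociated the retinas with papain, tagged cells by MULTI-seq and made 10x Chromium 3′ libraries. Per the labels' processing notes, Cell Ranger 3.1.0, mm10 and Seurat 3 were used. The deposited raw RNA count tables (whole UMIs per gene and cell) were used, with the deposited sample and cell type of each cell. The authors also deposited SCTransform values, on a natural log scale of 1 plus the depth-corrected UMI count, which were turned back into whole corrected UMIs for 1 alternative. The authors' cell filters and treatment of doublets are not given in the sources used here, and no cell was removed. UMIs were summed per sample and cell type. CPM of the sums gives levels. Groups were tested with edgeR 4.0.16 (quasi-likelihood, TMM, filterByExpr, all groups of a library in 1 fit) on raw counts, with Benjamini-Hochberg adjustment over all genes tested and a threshold of 0.05. The scripts were first tested on simulated data. A library had 1 or 2 samples per group, and libraries were never pooled in a test of dose or genotype. Alternatives were DESeq2 1.42.0, DESeq2 size factors, no filter, leaving out the 5% of cells with the most UMIs, leaving out each sample, and those corrected UMIs, whose log2(CPM + 1) was tested with limma 3.58.1. Ratios of few UMIs carry exact 95% intervals, and intervals and the floor of 3 counts cover counting error only. Positions are from GENCODE M21 (GRCm38). Cnga1, Cngb3 and Pdc each overlap 1 predicted gene on their strand, so their counts could be split.

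Members were all accounted for. Values per sample were given for the most abundant members, each rod and cone pair, members called, and the highest and lowest log2 fold change in each comparison. The members and lists were chosen with earlier results of these data known. A gene withheld from this text is not reported here.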

Additional observations from a re-analysis of the deposited data

Results flagged for a closer look

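The difference between rod-marked and cone-marked photoreceptors was compared between P0 retinas and explants in 1 edgeR fit over both libraries, with sample and class as terms and the class by library interaction tested over 5109 genes. This test was added after the data were seen. Of 21 members tested, 10 were called (adjusted p under 0.05), where 2.52% of all genes were. Values are the log2 fold change of rod-marked over cone-marked cells at P0 minus that in explants. Genes of the cone side had the more negative change at P0. Gnb3 differed by -1.03 ± 0.12 (adjusted p = 2.9e-08), Gngt2 by -0.47 ± 0.13 (adjusted p = 0.0261) and Cngb3 by -1.44 ± 0.29 (adjusted p = 0.000937). Gnat2 differed by -3.00 ± 0.31, Rcvrn by -3.80 ± 0.33, Pde6c by -3.88 ± 0.74 and Guca1a by -2.82 ± 0.69. Rod-marked cells of P0 held only 30 UMIs of Gnat2, 35 of Rcvrn, 2 of Pde6c and 2 of Guca1a. The size of their change rests on these low counts, so their p-values are left out and the 10 calls are a description. Sag (1.69 ± 0.23, adjusted p = 5.68e-07) and Pdc (0.55 ± 0.14, adjusted p = 0.0142) had the more positive change at P0. Gngt1 (1.34 ± 0.21, adjusted p = 1.31e-05) was on the cone side in explants, in 8 of 8, and near 0 at P0, where 3 of 5 retinas were higher in rod-marked cells. Cell depth differed as well, with a median of 2469 UMIs in rod-marked cells of explants and 3971 at P0, and its part in the difference was not tested. All doses and all genotypes entered this fit, so culture, agonist, Sstr2 genotype, strain background and library cannot be told apart here.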

How the results depend on the processing

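No paired analysis was possible for dose and genotype because the deposited sample names carry no replicate number, only a tag number that names the sample, and the replicate numbers used here follow the order of those tags. The split of photoreceptors used the sample as a replicate block, and without it the calls stayed within 1.5 times. The counts of members called in rod-marked against cone-marked cells (19 at P0, 14 in explants), the 0 calls in bipolar cells and in knockout against heterozygous rods, and the numbers of members above 100 CPM by a mean over cells changed by no more than 1.5 times under every alternative run. For 500 against 0 nM, where the count was 1, DESeq2, limma on SCTransform-corrected counts, the slope on log10 dose and cells with a Xist UMI gave 0, and leaving out single samples gave 0 to 1. Without 0 nM replicate 1 the count was 0, and without 500 nM replicate 1 the call passed from Gngt2 to Guca1b. In P0 knockout against wild type (0), no filter gave 2, limma 1 and single samples left out 0 to 2, with Cnga1 among the calls, at 2 without heterozygote replicate 1 or knockout replicate 1. In P0 knockout against heterozygous (1), no filter gave 5, limma 2 and samples left out 0 to 3, with 0 without heterozygote replicate 2 and 3 without knockout replicate 2. P14 rods against wild type (0) gave 1 with no filter. P14 cones against wild type (7) gave 1 with DESeq2, 2 without the 5% of cells with the most UMIs, 0 with limma and 0 to 8 with samples left out, with 0 without either knockout. P14 cones against heterozygotes (0) gave 0 to 2 and Müller glia (0) 0 to 6 with samples left out, the calls arising without heterozygote replicate 1 or 2. Of single genes, log2 changes that turned sign were Guca1b for dose (-3.35 to 0.64 with samples left out), Cngb3 in rods against wild type (0.18 without the 5% of cells with the most UMIs, -0.88 to 0.12 with samples left out), Guca1a in rods against heterozygotes (-0.76 to 0.52) and Gngt1 in bipolar cells (-1.04 to 0.29). The causes of these shifts were not tested. Shares of all genes called in these alternative fits are not given here. The counts of calls under the alternatives therefore describe stability only and are no results about the members. Depth limited members under about 10 CPM, and 11 to 34 cones per retina limited the cone values.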
